A study of Mus musculus with 7 samples.

Results

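Transcripts of 6 neutrophil genes, the metalloproteinases Mmp8, Mmp9 and Mmp25, the secreted protein gene Retnlg and the sheddases Adam8 and Adam19, were followed in mouse neutrophils of healthy blood, bone marrow and spleen and of inflamed sites. They are 6 of the 28719 genes named in any of the 7 count tables, and 5 of them had a row in all 7 tables. They were chosen by name and not by a limit on their values, though with earlier results of these data known. Mmp25 had no row in blood of run 1. The tables of run 1 hold no gene without a count and few genes seen in under 10 cells, so that a missing row there was not taken as a count of 0.

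Neutrophils were sorted as live CD11b+ Ly6G+ cells from male C57BL/6J mice, pooled from 3 mice per tissue or condition, and captured in droplets in which each transcript molecule receives a unique molecular identifier (UMI). Untreated mice gave blood, bone marrow and spleen in 2 runs, at 6 weeks of age in run 1 and 8 weeks in run 2, so that age and run cannot be told apart. A single library held 5 conditions marked by hashtag antibodies: blood of untreated mice, blood and joint lavage on day 7 after 150 µl of K/BxN serum, which transfers arthritis by autoantibodies, given on days 0 and 2 to mice aged 8 weeks, and lung and peritoneal lavage 3 h after 25 ng of IL-1β given intranasally in 30 µl or intraperitoneally in 200 µl to mice of the same age. In healthy libraries, cells were kept where S100a8 and S100a9, the abundant calprotectin transcripts of neutrophils, made up at least 3% of UMIs, and in the inflammation library where the deposited ImmGen cell type began with GN.

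This kept 1306, 1206 and 1135 cells of blood, bone marrow and spleen of run 1, 3672, 3426 and 2010 of run 2, and 509 cells of healthy blood, 814 of arthritic blood, 2857 of arthritic joint, 380 of IL-1β lung and 292 of IL-1β peritoneum in the inflammation library. The kept cells of a group summed to between 942688 and 10293966 UMIs, and the median cell held 775 to 2698.5 UMIs in healthy libraries and 2527 to 3681 in the inflammation library. All 12 neutrophil markers were detected in every group. Of 4353 deposited cells in spleen of run 2, 46.2% were kept. Haemoglobin and other erythroid transcripts stood at 30348 UMIs per 1000000 (CPM) in the kept cells of blood of run 2 and at 252 to 912 CPM in the other healthy libraries. Libraries shared 0 to 36 cell barcodes, at most 0.942% of the smaller library. Between 0 and 93 cells of a healthy library lay just above the limit (3% to 4%) and between 5 and 92 just below it (2% to 3%).

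Neutrophil granules form in sequence during maturation in the marrow, first primary, then secondary, then gelatinase granules. Gelatinase granules are released easily when the cell leaves the vessel, and Mmp9 encodes the gelatinase B for which they are named. Mmp8 encodes neutrophil collagenase, stored mainly in secondary granules, and Mmp25 a metalloproteinase anchored in the membrane by a lipid tail. Retnlg encodes resistin-like gamma, a small secreted protein of myeloid cells. Adam8 and Adam19 encode membrane proteinases that cut proteins off cell surfaces. The genes lie apart in the genome (GRCm38): Mmp8 at chr9:7558429-7568486, Mmp9 at chr2:164940326-164955850, Mmp25 at chr17:23628315-23645269, Retnlg at chr16:48872608-48874498, Adam8 at chr7:139978932-139995207 and Adam19 at chr11:46054502-46147347.

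The 250 bases before the annotated start of Mmp8 (chr9:7558179-7558428, plus strand), Retnlg (chr16:48872358-48872607, plus strand) and Adam8 (chr7:139992563-139992812, minus strand, within the annotated gene) are shown because the first 2 genes followed each other over tissues and conditions and the third did not. They come from RefSeq promoter windows of GRCm38.p6, which held 7 windows for 5 of the 6 genes. Capitals mark matches, on either strand, to letters bound by factors of granulocyte development, TTGCNNAA (C/EBP) and GAGGAA (PU.1).
Mmp8: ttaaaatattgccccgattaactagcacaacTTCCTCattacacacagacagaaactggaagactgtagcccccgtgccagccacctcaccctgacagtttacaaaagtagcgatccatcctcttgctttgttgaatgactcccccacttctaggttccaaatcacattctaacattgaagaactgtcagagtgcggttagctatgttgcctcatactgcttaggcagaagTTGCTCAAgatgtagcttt
Retnlg: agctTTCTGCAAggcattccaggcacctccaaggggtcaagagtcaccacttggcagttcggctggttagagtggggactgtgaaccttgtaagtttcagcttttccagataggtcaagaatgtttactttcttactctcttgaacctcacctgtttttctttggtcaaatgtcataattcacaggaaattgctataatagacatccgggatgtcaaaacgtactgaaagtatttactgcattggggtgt
Adam8: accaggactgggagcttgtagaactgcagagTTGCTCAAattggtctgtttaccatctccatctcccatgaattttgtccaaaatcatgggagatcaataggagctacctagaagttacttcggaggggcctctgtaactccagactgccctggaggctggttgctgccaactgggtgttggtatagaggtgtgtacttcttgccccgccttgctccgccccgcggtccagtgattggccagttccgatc
Mmp8 and Adam8 held the same C/EBP letters, TTGCTCAA, from base -19 to -12 and from -219 to -212 counted from the start, and Retnlg held a match on the opposite strand from -246 to -239. Mmp8 also held PU.1 letters on the opposite strand from -219 to -214. Over all 32851 windows of 300 bases, 10.8% held C/EBP letters and 28.3% PU.1 letters, against 3 and 3 of the 7 windows of these genes. Letters for AP-1 (TGANTCA) were in 1 of the 7 windows, a window of Adam19, and in 7.81% of all, and those for NF-kB in 0 of 7 and 0.411% of all.

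**Figure D1:**
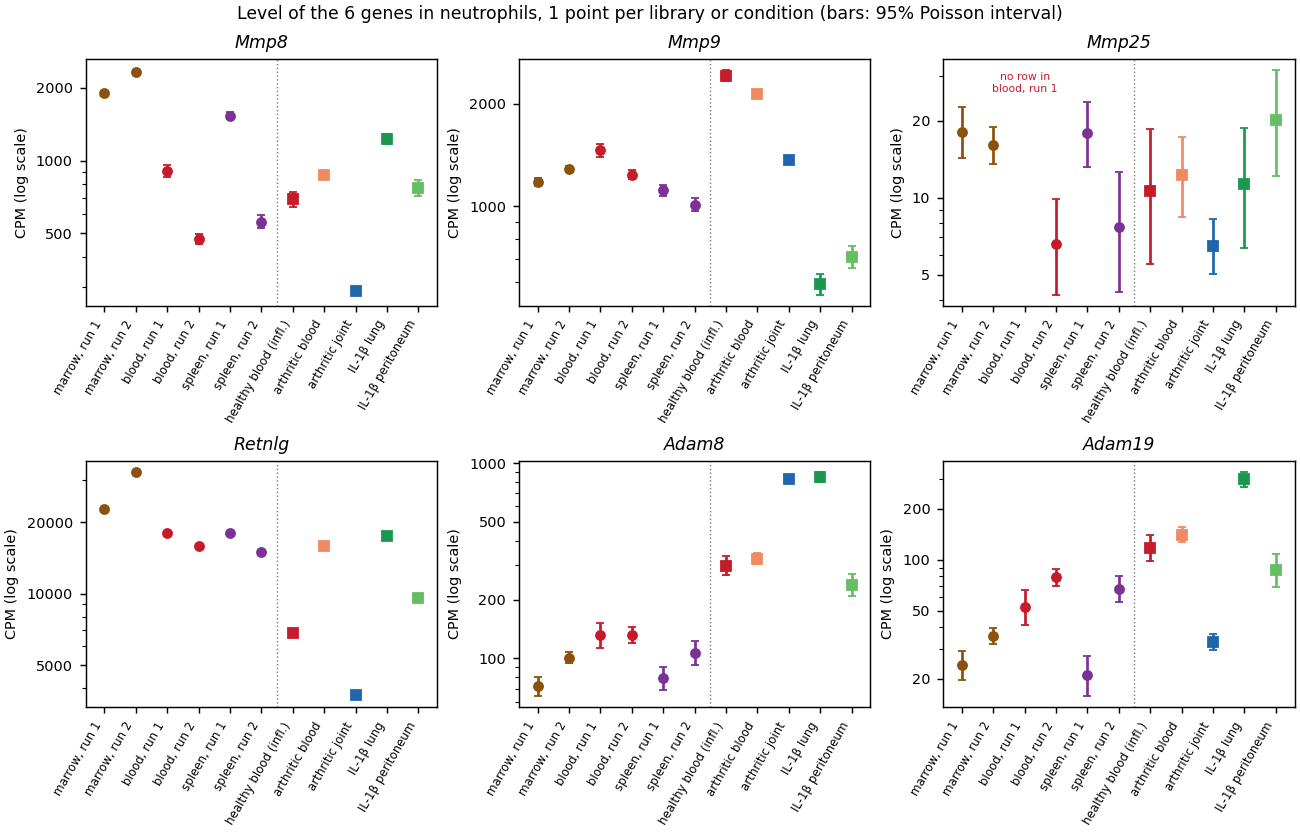
Level of each gene in CPM (log axis) in neutrophils of the 6 healthy libraries (circles) and of the 5 conditions of the inflammation library (squares, right of the dotted line). Bars are exact 95% Poisson intervals, which cover counting error only. Mmp8 was at 1898 and 2331 CPM in the marrow libraries and at 289 CPM in the arthritic joint.

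Mmp8 had the largest fitted difference between healthy tissues among the 5 genes tested over all kept cells. It stood at 1898 and 2331 CPM in bone marrow (runs 1 and 2), at 907 and 475 CPM in blood, and at 1535 and 559 CPM in spleen. Both marrow libraries lay above both blood libraries and both spleen libraries, and spleen of run 1 lay near marrow while spleen of run 2 lay near blood. Mean Mmp8 levels (± SD, n = 2 libraries) were 2114 ± 306 CPM for marrow, 1047 ± 691 CPM for spleen and 691 ± 305 CPM for blood. Spleen and blood did not differ beyond the spread of the spleen libraries. Mmp8 was lower in blood than in marrow by 4.30-fold after scaling (log2 fold change -2.10, SE 0.46, 95% interval -3.13 to -1.08, edgeR quasi-likelihood test with Benjamini-Hochberg adjustment, FDR 0.00894). In that comparison 15.2% of the 6588 genes tested were lower and 15.8% higher. The FDR was 0.0912 without blood of run 1, 0.113 without blood of run 2, 0.0784 without marrow of run 2 (log2 fold change -1.10) and 0.118 without the run in the model, within a range of 1.54e-09 to 0.118 over 17 alternatives, and Mmp8 was lower in blood under all of them. Spleen minus marrow gave -1.37 (SE 0.46, FDR 0.134) and ranged from -0.46 (FDR 0.928) without marrow of run 2 and -0.59 (FDR 0.697) without spleen of run 2 to -2.20 (FDR 5.39e-05) without marrow of run 1 and -2.21 (FDR 0.00319) without spleen of run 1, with an FDR of 9.58e-06 to 0.928 over 17 alternatives.

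Markers of neutrophil precursors were also highest in marrow, but were lower there in run 2 than in run 1 while Mmp8 was higher. Their summed level was 1535 and 799 CPM in marrow, with all 8 markers detected. It was 154 and 66.1 CPM in blood, with 2 and 5 detected, and 549 and 164 CPM in spleen, with 3 and 5 detected. In run 1 just 2 of the 8 markers had a row in blood and 3 in spleen, so those sums leave out the others. Elane and Ctsg, proteases of the primary granules of precursors, were at 0 in blood and spleen of run 2 and had no row there in run 1. Monocyte or macrophage markers, 11 genes, were at 1391 and 1020 CPM in marrow, 640 and 269 CPM in blood and 1157 and 356 CPM in spleen, with 8 to 11 detected. Platelet markers were at 97.8 and 154 CPM in blood, with 5 of 5 detected, and at 0 to 3.51 CPM in marrow and spleen. B cell markers were at 4.47 to 22.8 CPM in run 1 and at 190 (marrow), 330 (blood) and 903 CPM (spleen) in run 2. The part of these cells in the tissue differences was not tested. The fits over all kept cells scale by TMM factors, which move every gene by 0.31 (blood minus marrow), 0.18 (spleen minus marrow) and -0.13 (spleen minus blood) on the log2 scale against CPM, downwards where the value is positive. Of the 2037 genes called between blood and marrow, 1038 were higher and 999 lower in blood with TMM factors, against 1229 higher and 546 lower (69.2% higher) with total UMIs alone.

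Retnlg was also highest in marrow, with a smaller gradient and no fixed order of blood and spleen. Its levels were 22609 and 32429 CPM in marrow, 17990 and 15913 CPM in blood, and 17994 and 14928 CPM in spleen, and both marrow libraries lay above the other 4. The fitted difference was -1.03 between blood and marrow (SE 0.36, FDR 0.0547) and -0.91 between spleen and marrow (SE 0.36, FDR 0.185), neither past the threshold of 0.05. Between blood and marrow it passed the threshold with DESeq2 (FDR 0.0136), with a filter on cell quality (FDR 0.0224), without a filter on low counts (FDR 0.049), without cells that held lymphocyte or platelet markers (FDR 0.0112), and without marrow of run 1 (FDR 0.00355), spleen of run 1 (FDR 0.00158) or spleen of run 2 (FDR 0.00542), while without marrow of run 2 the value was -0.49 (FDR 0.533), and the range over 17 alternatives was 1.91e-09 to that FDR. Between spleen and marrow it passed without marrow of run 1 (FDR 0.0209) or spleen of run 1 (FDR 0.00375) and was at -0.39 (FDR 0.964) without marrow of run 2 and -0.46 (FDR 0.581) without spleen of run 2, the lowest FDR being 3.63e-10. Blood and spleen differed by 0.12 (SE 0.35, FDR 0.906), with an interval of -0.67 to 0.91, and by -0.04 with total UMIs.

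Mmp9 did not share this gradient. It was at 1181 and 1291 CPM in marrow, 1463 and 1238 CPM in blood, and 1115 and 1012 CPM in spleen, with blood and marrow overlapping and spleen lowest in both runs. The difference between blood and marrow was -0.20 (SE 0.27, FDR 0.601, interval -0.81 to 0.41), and 0.12 with total UMIs in place of TMM factors. Spleen minus marrow was -0.40 (SE 0.27, FDR 0.439) and spleen minus blood -0.20 (SE 0.27, FDR 0.776), so that no tissue difference of Mmp9 was detectable over all kept cells.

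Adam19 ran the other way from Mmp8. It was at 24.0 and 35.6 CPM in marrow, 52.9 and 78.7 CPM in blood, and 20.8 and 67.5 CPM in spleen. Both blood libraries lay above both marrow libraries, and spleen again lay near marrow in run 1 and near blood in run 2. Adam19 was higher in blood than in marrow by 1.77-fold (log2 fold change 0.83, SE 0.26, FDR 0.0381), and the CPM difference was 1.11 in run 1 and 1.12 in run 2 on the log2 scale. In the latest cells alone the value turned to -0.05 (FDR 0.983). The call rests on few molecules, 72 to 324 UMIs in each of these 4 libraries, and was lost, with values of 0.57 to 0.99 that kept the direction, without blood of run 1 (FDR 0.272) or run 2 (FDR 0.123), without marrow of run 1 (FDR 0.0592) or run 2 (FDR 0.324), with DESeq2 (FDR 0.0964), with the filter on cell quality (FDR 0.127), with genes lacking a row taken as 0 (FDR 0.0519) and without the run in the model (FDR 0.306), the lowest FDR over 17 alternatives being 0.00712.

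Adam8 stood at 71.8 and 100.8 CPM in marrow, 132 and 132 CPM in blood, and 78.9 and 107 CPM in spleen. The blood libraries lay above the other 4 in CPM, yet the fitted difference from marrow was 0.30 (SE 0.22, FDR 0.33) and that from spleen missed the threshold as well (FDR 0.47). Mmp25 was rare, with 309 UMIs in all healthy libraries, at 18.1 and 16.0 CPM in marrow, 17.9 and 7.67 CPM in spleen and 6.61 CPM in blood of run 2, and was not tested for lack of a row in blood of run 1. Between spleen and marrow 4.86% of genes were called and between spleen and blood 0.167%, none of them among the 5 genes tested, of which 2 (Mmp8 and Retnlg) and 1 (Adam19) had an unadjusted p under 0.05. With DESeq2 the same comparisons called 1 (Mmp8, FDR 0.0213) and 0 of the 5.

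**Figure D2:**
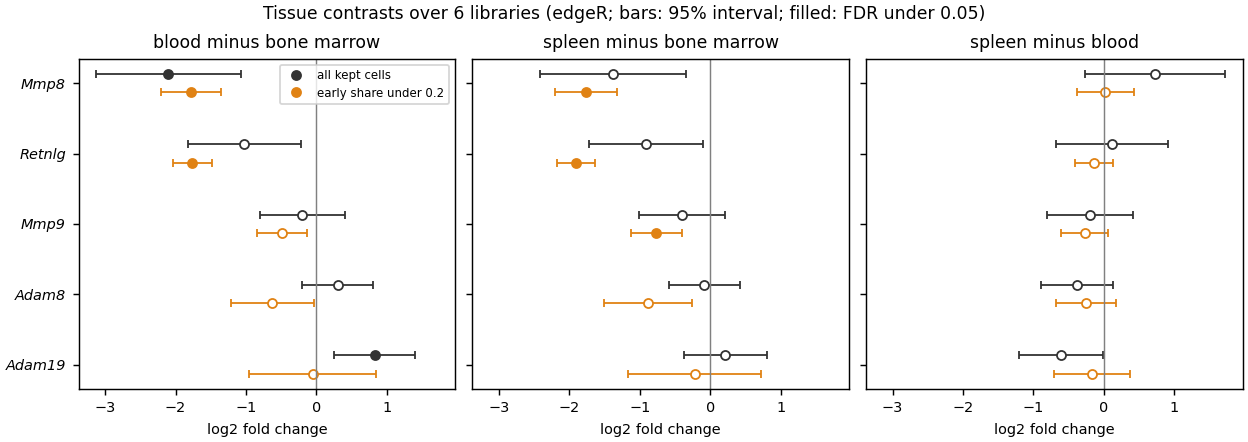
Fitted log2 fold changes between tissues for the 5 genes tested, over all kept cells (black) and over the most mature cells alone (orange, early share under 0.2). Bars are 95% intervals and filled points have an FDR under 0.05. Mmp8 was at -2.10 in blood minus bone marrow over all kept cells and Retnlg at -1.76 in the most mature cells.

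The genes with which these 6 share a granule or a substrate were read beside them. Of 6 secondary granule genes 5 were tested and all 5, Camp, Ngp, Ltf, Lcn2 and Cd177, were lower in blood than in marrow, with a median log2 fold change of -3.62 against -0.00 over all genes. Mmp8 stood at -2.10. Ltf, which encodes lactoferrin, stood at -3.63 (FDR 0.00469) and Lcn2, an iron-siderophore binding lipocalin, at -2.27 (FDR 0.00772). Of 10 other gelatinase and secretory granule genes tested, 3 were lower in blood, Fcnb (ficolin B, -5.79), Cybb (the oxidase subunit gp91phox, -3.00) and Lyz2 (lysozyme, -2.42), 1 was higher, Slc11a1 (a phagosomal metal transporter, 1.74), 4 of 10 called beside 30.9% of all genes, and 6 were not called, among them Hp (haptoglobin, 0.20) and Cyba (the oxidase subunit p22phox, -0.44). Fcnb was also lower in spleen than in marrow (-2.20) and higher in spleen than in blood (3.59), and Slc11a1 was higher in spleen than in marrow (1.34). Camp, Ngp, Ltf and Lcn2 are among the genes the study itself named from these cells and are no independent evidence of a direction.

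Among genes of ectodomain shedding, Adam17, the main sheddase of neutrophils, was higher in blood than in marrow (log2 fold change 0.93, SE 0.26, FDR 0.0254). Of 5 of its substrates 4 were higher as well, Il6ra (1.90), Tnfrsf1a (1.30), Tnfrsf1b (2.68) and Il1r2 (a decoy receptor of IL-1, 0.96), where 15.8% of all genes were. In spleen minus marrow 2 of the 5 were called, Il6ra (1.35) and Tnfrsf1b (1.98), beside 4.86% of all genes. Adam10, Adam15 and Rhbdf2, an iRhom that carries ADAM17 to the surface, were tested and not called. Reck, a membrane inhibitor of metalloproteinases, was lower in blood (-2.40), and Retn, which encodes resistin, was higher (2.29), the opposite direction to the fitted value of its relative Retnlg. Timp2, the only tissue inhibitor above 2 CPM in any group, lay between 137 and 190 CPM in healthy libraries and was not called. None of 20 other metalloproteinase genes could be tested, and the highest level in a healthy library was 3.77 CPM of Mmp27 in marrow of run 1. Of the primary granule genes, none testable, Elane was at 318 and 71.1 CPM in marrow, Prtn3 at 105 and 35.9 CPM and Mpo at 119 and 21.6 CPM. Retnlb and Retnla, near relatives of Retnlg, were at 277 to 399 and 44.3 to 63.2 CPM in run 1 but at 6.64 to 9.77 and 0 CPM in run 2. The runs differ in mice, age and software version, and the labels name V1 reagents as well without saying for which library, all of which cannot be told apart, and whether reads of these relatives were counted for Retnlg was not tested, so its levels in different runs are uncertain.

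The share of cells with a transcript followed the level for Mmp8. After each cell was thinned to 500 UMIs, 59.5% and 64.5% of marrow cells held a UMI of Mmp8 against 24.1% and 16.0% of blood cells and 37.0% and 16.1% of spleen cells. Unthinned, these were 87.2% and 88.1%, 33.2% and 24.9%, and 58.4% and 23.8%, with 26 shallower cells of blood of run 1 left out by thinning. Retnlg was found in 88.0% to 93.8% of thinned cells in all 6 libraries, with a median of 14 and 22 UMIs per cell in marrow and of 5 UMIs in each blood and spleen library. B cells of the same libraries, taken to lack Mmp8 and Retnlg, give the background of free RNA for both genes. Among cells of run 2 with at least 2 UMIs of Cd79a or Cd79b and below the S100 limit, also thinned to 500 UMIs, 3.72% in marrow, 2.67% in blood and 0.215% in spleen held Mmp8, and 53.9%, 18.7% and 11.7% held Retnlg, at median depths of 1509, 1523 and 1436 UMIs. For Adam19, 2.60% of those marrow B cells and 2.60% of marrow neutrophils held a UMI, at 37.4 CPM (22.5 to 58.4) and 35.6 CPM. Of 21 Adam19 UMIs in the 397 marrow cells of run 2 below the S100 limit, 19 lay in the 269 B cells. They were thus not spread evenly over those cells, so the B cells give no background of free RNA for Adam19. Its share in neutrophils therefore stands without a background. Summed over B cells, Mmp8 reached 59.0 CPM and Retnlg 1425 CPM at most, against 2331 and 32429 CPM in neutrophils of that marrow library.

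Maturation was followed with genes that are no members, as the share of early transcripts (Camp, Ngp, Ltf, Lcn2, Chil3) in the sum of these and late ones (Csf3r, Il1b, Ccl6, Junb), for cells with at least 10 such UMIs. That minimum left out 473 and 1250 cells of blood, 86 and 748 of spleen, and 8 and 74 of marrow in runs 1 and 2. Retnlg was not highest in the earliest cells in any library, though in blood of run 2 the values were near, 25755 CPM at 0.8 to 1 and 27774 CPM at 0.4 to 0.6. Mmp8 was not highest in the earliest cells in marrow and in spleen of run 1. In marrow Mmp8 was at 1849 and 2341 CPM at an early share of 0.8 to 1, at 2983 and 3079 CPM at 0.6 to 0.8, and at 1054 and 1271 CPM under 0.2. Retnlg started at 17015 and 24787 CPM, stood at 62280 and 65810 CPM at 0.6 to 0.8 and at 64480 and 61250 CPM at 0.4 to 0.6, and was still at 39819 and 49313 CPM in the latest range. In both blood libraries and spleen of run 2, where under 20 cells lay at 0.6 to 0.8, Mmp8 was highest at 0.8 to 1, at 1854, 2380 and 1745 CPM. Mmp9 was at 1088 and 1201 CPM at 0.8 to 1 in marrow, at 1882 and 1766 CPM at 0.6 to 0.8, and at 1746 and 1554 CPM in the latest range. Adam19 was at 10.1 to 28.4 CPM in the earliest range of the 6 libraries, from 2 to 158 UMIs, and at 40.6 to 89.8 CPM in the latest range of 5 of them, with 16.5 CPM from 1 UMI in marrow of run 1. These are descriptions of pooled cells, and between 59 and 305 cells of a library lay within 0.02 of a limit between ranges.

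**Figure D3:**
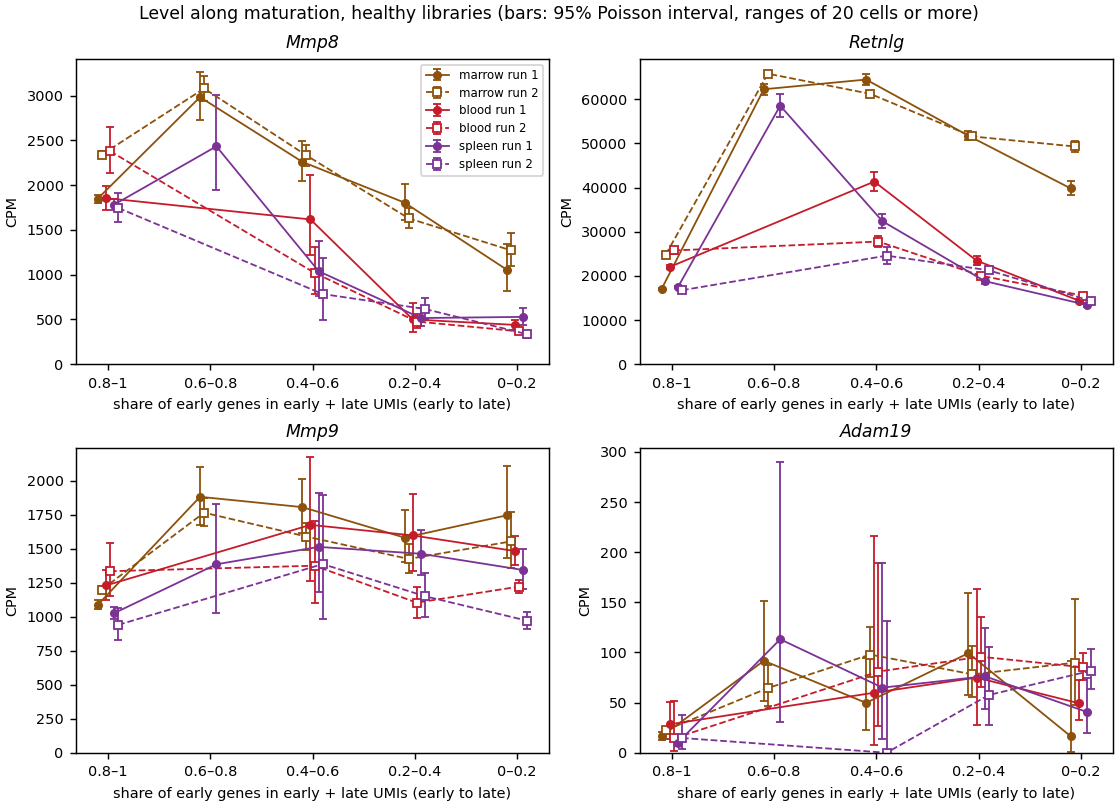
Level of Mmp8, Retnlg, Mmp9 and Adam19 in CPM (linear axes from 0) against the share of early transcripts, from early on the left to late on the right, for the 6 healthy libraries. Bars are exact 95% Poisson intervals, and ranges with under 20 cells are not drawn. At an early share under 0.2, Retnlg was at 39819 and 49313 CPM in the marrow libraries and between 13403 and 15525 CPM in blood and spleen.

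In the earliest range blood did not lie below marrow. At an early share of 0.8 to 1, Retnlg was at 22023 and 25755 CPM in blood, 17448 and 16740 CPM in spleen and 17015 and 24787 CPM in marrow, and Mmp8 was at 1854 and 2380, 1782 and 1745, and 1849 and 2341 CPM. In the late ranges blood and spleen cells held less of both genes than marrow cells. Among cells under 0.2, Retnlg was at 39819 and 49313 CPM in marrow, 14393 and 15525 CPM in blood, and 13403 and 14304 CPM in spleen. Mmp8 was at 1054 and 1271 CPM in marrow, 438 and 366 CPM in blood, and 528 and 334 CPM in spleen. For both genes the marrow libraries stood clear of the other 4, and in this range spleen of run 1 lay with the blood libraries and no longer with marrow. In a fit on these cells alone, added after the data were seen, Retnlg was lower by 3.39-fold in blood (log2 fold change -1.76, SE 0.13, FDR 1.91e-09) and by 3.74-fold in spleen (-1.90, SE 0.13, FDR 3.63e-10). Mmp8 was lower by 3.44-fold in blood (-1.78, SE 0.21, FDR 6.24e-06) and lower in spleen as well (-1.76, SE 0.22, FDR 9.58e-06). With total UMIs the values in blood were -1.57 for Retnlg and -1.58 for Mmp8. Of 3539 genes tested in these cells, 3.48% were called between blood and marrow, 4.13% between spleen and marrow and 0.848% between spleen and blood. Mmp9 was lower in spleen than in marrow (-0.77, SE 0.17, FDR 0.00933) and stood at -0.49 in blood (FDR 0.132), while Adam8 (-0.63, FDR 0.288) and Adam19 (-0.05, FDR 0.983, and 0.17 with total UMIs) were not called. No member was called between spleen and blood, where 0 of 5 had an unadjusted p under 0.05.

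Leaving out any 1 library kept the late-cell calls of Mmp8 and Retnlg, with log2 fold changes of -2.08 to -1.21 for Mmp8 and -2.02 to -1.51 for Retnlg, the smallest for both without marrow of run 2. The spleen call of Mmp9 was lost without marrow of run 2 (-0.52, FDR 0.548) or spleen of run 2 (-0.60, FDR 0.281). Without the run in the model the sizes stayed (-1.75 for Mmp8 and -1.78 for Retnlg in blood), but no call of Mmp8, Mmp9 or Retnlg remained (FDR 0.367 to 0.469). The marrow libraries held few such cells, 38 and 109, against 560 and 2015 in blood and 247 and 977 in spleen. Within the range, the mean early share was 0.138 and 0.124 in marrow, 0.0517 and 0.0491 in blood, and 0.115 and 0.0508 in spleen. The S100 transcripts made up 24.3% and 27.2% of UMIs in late marrow cells and 14.8% to 16.6% in the others, and their median depth was 1511 and 1254 UMIs against 804 to 934. The part of early share, depth or S100 level in the difference was not tested. In the next range, 0.2 to 0.4, Retnlg stood at 51760 and 51594 CPM in marrow and between 18813 and 23464 CPM in the other 4 libraries.

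In the inflammation library each condition is 1 pool, so no difference between conditions has a replicate check or a test, and a gene is counted past 2-fold among genes with a mean of at least 20 CPM in the pair. Intervals cover counting error only. Lung and peritoneum share agent, dose and time, and joint and arthritic blood share serum and day, while the arthritic and IL-1β conditions differ in site, agent and time at once, which cannot be told apart. Monocyte or macrophage markers summed to 283 to 389 CPM over the 5 conditions, with 7 to 11 of 11 detected, and neutrophil precursor markers to 8.33 to 45.3 CPM, with Mpo, Elane and Ctsg at 0 throughout. B cell markers summed to 210 CPM in healthy blood, 125 in arthritic blood, 51.5 in joint, 22.7 in lung and 28.6 in peritoneum, with 2 to 6 of 8 detected, and their part in the differences was not tested. Too few cells of other types were deposited to measure free RNA, which the 5 conditions shared.

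The arthritic joint set the genes apart from one another. Against blood of the same condition, Retnlg was lower in the joint, 3738 against 15850 CPM (log2 ratio -2.08, 95% interval -2.10 to -2.06), as were Adam19, 32.6 against 140 CPM (-2.10, -2.32 to -1.89), and Mmp8, 289 against 870 CPM (-1.59, -1.67 to -1.51). Adam8 was higher, 828 against 324 CPM (1.35, 1.25 to 1.46). Mmp9 was lower by less than 2-fold, 1371 against 2144 CPM (-0.64), and Mmp25 was at 6.51 and 12.3 CPM. Thus 1 gene was past 2-fold upwards and 3 downwards of the 5 with at least 20 CPM, where 20.3% of 3940 genes were past 2-fold in either direction and the median ratio was -0.01. After thinning, a UMI of Retnlg was found in 46.0% of joint cells and 87.2% of arthritic blood cells, of Mmp8 in 11.0% and 28.9%, of Adam19 in 1.79% and 6.51%, and of Adam8 in 30.9% and 18.6%. The unthinned shares were 80.7% and 93.6%, 39.4% and 68.4%, 9.14% and 31.2%, and 78.5% and 61.7%.

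The secondary granule genes with at least 20 CPM, Ngp, Lcn2 and Cd177, were also past 2-fold lower in the joint (log2 ratios -2.12, -1.39 and -1.97). Adam17 was higher, 127 against 50.9 CPM (1.32, 1.06 to 1.58). Of 5 of its substrates 3 were past 2-fold higher, Tnf (3.15), Tnfrsf1b (1.68) and Il1r2 (2.98), where 13.1% of all genes were. Il6ra was at -0.41 and Tnfrsf1a at 0.02. In the lung against healthy blood the same 3 substrates were past 2-fold higher (2.98, 1.06 and 3.85), with Adam17 at -0.14 per total UMIs and 0.76 with TMM factors. Timp2 was at 350 CPM in the joint, 283 CPM in arthritic blood and 150 CPM in healthy blood.

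Between lung and peritoneum, Adam8 and Adam19 were the members past 2-fold. Adam8 was at 851 CPM in the lung and 239 CPM in the peritoneum (log2 ratio 1.83, 1.63 to 2.05), and Adam19 at 298 and 87.0 CPM (1.78, 1.43 to 2.14). Adam17 went the other way, at 49.96 and 90.2 CPM (-0.85, -1.34 to -0.37). Mmp8, 1232 against 771 CPM (0.68), and Retnlg, 17500 against 9608 CPM (0.87), were higher in the lung by less than 2-fold, and Mmp9 was at 590 and 710 CPM (-0.27, -0.42 to -0.11). These 2 of 5 genes past 2-fold stand beside 15.5% of 3165 genes. A thinned UMI of Adam8 was found in 38.2% of lung and 12.7% of peritoneal cells, and of Adam19 in 17.6% and 5.48% (unthinned 78.7% and 43.8%, and 52.6% and 18.2%). In all 11 groups Mmp8 was found more often in thinned cells with Retnlg than without it, in 37.9% against 9.91% in the lung, 25.6% against 6.19% in the peritoneum, and 63.7% against 20.5% and 67.6% against 17.4% in marrow. Among secondary granule genes Lcn2 was lower in the lung, 4096 against 11753 CPM, and Ngp higher, 238 against 103 CPM.

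**Figure D4:**
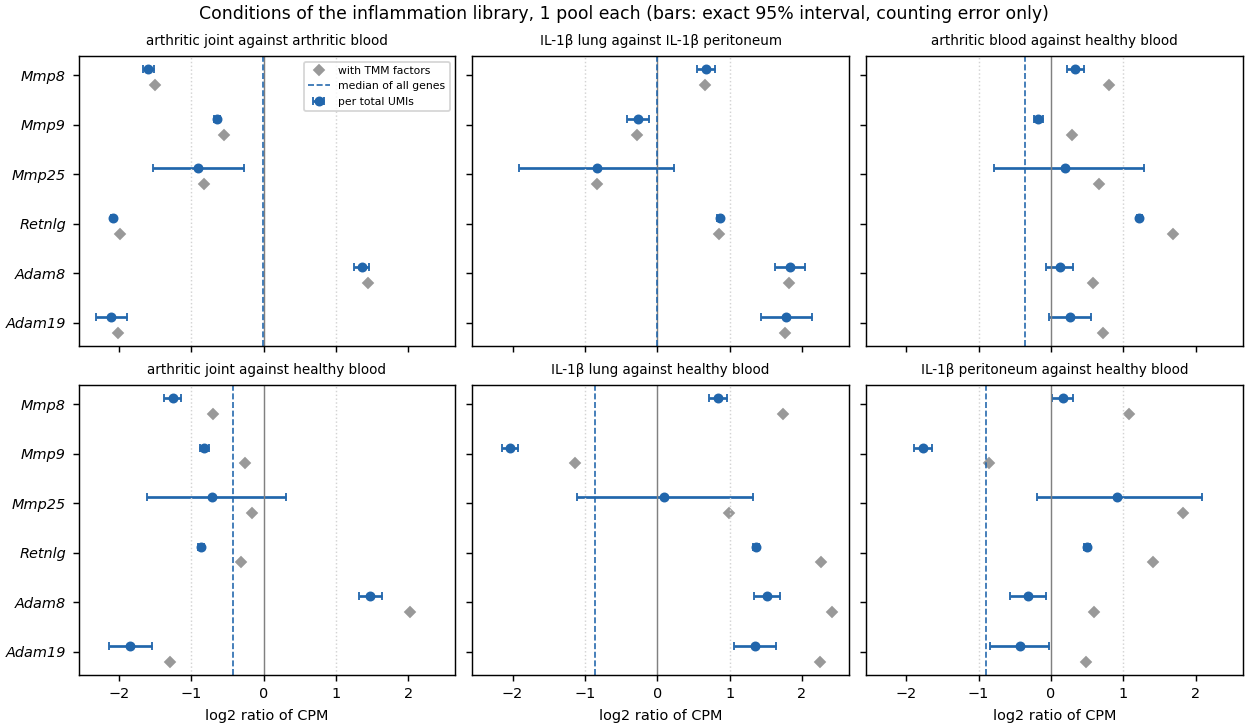
Log2 ratio of CPM between conditions for the 6 genes, per total UMIs (blue, with exact 95% intervals for counting error) and with TMM factors (grey diamonds). Dashed lines mark the median of all genes with at least 20 CPM and dotted lines a 2-fold difference. Retnlg was at -2.08 and Adam8 at 1.35 in the joint against arthritic blood.

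The other 4 comparisons were set against the same healthy blood of the inflammation library and so share its value. With TMM factors their ratios rise by 0.46 for arthritic blood, 0.56 for joint, 0.90 for lung and 0.91 for peritoneum, and of the genes past 2-fold the share that was higher was 9.92% per total UMIs and 84.3% with TMM factors for arthritic blood, 33.2% and 81.0% for joint, 21.1% and 62.6% for lung, and 20.4% and 63.4% for peritoneum. Retnlg was higher in arthritic blood, 15850 against 6806 CPM (1.22, 1.18 to 1.25), the only member past 2-fold of 5, beside 5.96% of all genes. The other members lay between -0.17 and 0.34, and Mmp9 turned from -0.17 to 0.29 with TMM factors. Against healthy blood of runs 1 and 2 in place of this pool, the ratio of Retnlg was -0.10, those of Adam8 (1.30) and Adam19 (1.09) were past 2-fold, and that of Mmp9 was 0.67. Those libraries held 17990 and 15913 CPM of Retnlg, 132 and 132 CPM of Adam8, and 1463 and 1238 CPM of Mmp9. The healthy blood pool of the inflammation library held 6806, 299 and 2419 CPM. The 2 references also differ in reagents (v2 against v3 by the methods), software version and rule for cells. Ratios against runs 1 and 2 hold these steps as well, which cannot be told apart from the condition.

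In the joint Adam8 was higher (1.47, 1.31 to 1.63) and Adam19 (-1.85) and Mmp8 (-1.26) lower than in healthy blood, past 2-fold in 3 of 5 members and in 30.0% of all genes, while Mmp9 was at -0.82 and Retnlg at -0.86. Against healthy blood of runs 1 and 2 Adam8 was at 2.65 in the joint, Adam19 at -1.01, Mmp8 at -1.26 and Retnlg at -2.18. In the lung Mmp9 was lower, 590 against 2419 CPM (-2.03, -2.15 to -1.92), and Retnlg (1.36), Adam8 (1.51) and Adam19 (1.35) were higher, 4 of 5 members past 2-fold where 57.1% of all genes were. Against healthy blood of runs 1 and 2 Retnlg was at 0.05 in the lung and -0.82 in the peritoneum. Its direction in the peritoneum thus depends on the reference, and the references also differ in reagents, software and rule for cells. Adam8 and Adam19 in the peritoneum were at 0.86 and 0.40 against runs 1 and 2. In the peritoneum Mmp9 alone was past 2-fold, 710 against 2419 CPM (-1.77, -1.89 to -1.65), where 58.0% of all genes were. Against the mean of healthy blood of runs 1 and 2, 1350 CPM, Mmp9 was lower by less than 2-fold in the peritoneum and by more than 2-fold in the lung. With TMM factors the members past 2-fold changed. Mmp8 no longer passed in the joint (-0.70) but passed upwards in the lung (1.74) and peritoneum (1.07), Retnlg passed upwards in the peritoneum (1.41), and Mmp9 passed in the lung (-1.13) but not in the peritoneum (-0.86). In the peritoneum Adam8 turned from -0.32 to 0.59 and Adam19 from -0.43 to 0.48. Mmp9 was the only member below healthy blood in all 3 inflamed sites under both scalings, and against healthy blood of runs 1 and 2 it was at 0.02 in the joint. Mmp25 lay between 6.51 and 20.2 CPM in the 5 conditions, from 12 to 67 UMIs, and its interval against healthy blood spanned 0 in all 4 comparisons. Among the other lists, Retn was past 2-fold lower in lung (-1.90) and peritoneum (-1.81) but not with TMM factors (-0.996 and -0.898), Ngp and Lcn2 were past 2-fold higher in arthritic blood, lung and peritoneum, and Mmp19 reached 15.9 CPM in the peritoneum, the highest level of any of the 20 other metalloproteinase genes.

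Genes whose levels most resembled those of each member were sought over the 6 healthy libraries and 5 conditions, among 3692 genes with a mean of at least 20 CPM, by Pearson's r of log2(CPM + 1). Points of a run share mice, the 5 conditions share a library, and the methods give v2 reagents for the healthy libraries and v3 for the conditions, so the values are descriptive and run across that step. Mmp8 was most like Cd177, a neutrophil surface protein of secondary granules (r = 0.92), Flot2, a membrane raft scaffold (0.91), and 1700047M11Rik (0.89). Retnlg was most like Ceacam10 (0.90), Mgst1, a glutathione transferase (0.89), and Flot2 (0.86). Among the members themselves Mmp8 and Retnlg were closest (0.81), followed by Mmp8 and Mmp25 (0.80, over 10 groups) and Adam8 and Adam19 (0.62), while Adam8 and Retnlg ran opposite (-0.64). Mmp9 was near 0 with every other member (-0.21 to -0.09) and was most like the kinase gene Hipk1 (0.98), the histone methyltransferase gene Setd1b (0.97) and the glucose transporter gene Slc2a3 (0.97). Adam8 was most like the chromatin remodeller gene Chd7 (0.99), the SMAD inhibitor gene Smad7 (0.98) and the kinase gene Plk3 (0.97), Adam19 like Fam188a (0.90) and Sgms1 (0.89), and Mmp25 like Gas7 (0.90), Lcn2 (0.88) and Cybb (0.84).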

How the data were processed

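Alignment to mm10 and counting of UMIs per gene and cell were done by the authors with Cell Ranger 1.2.0 (run 1), 2.1.0 (run 2) and 3.0.2 (inflammation library). The deposited values are raw UMI counts, not normalized. The methods name v2 reagents for healthy tissues and v3 for inflammation. Between 1.17% and 1.73% of genes with a count in the run 1 tables were counted in 1 to 9 cells, against 26.3% to 35.8% for run 2 and 30.2% for inflammation, so rows without a count, and apparently most genes seen in few cells, are missing from run 1.

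Counts were summed per library over kept cells, and genes with a row in all 6 healthy tables were compared with edgeR 4.0.16 in R 4.3.3 (quasi-likelihood test, TMM factors, filterByExpr, tissue and run as terms, FDR 0.05 over 6588 genes). The script was tested on simulated data. Per the methods, each run took all 3 tissues from the same animals, and libraries of a run deviated together (r = 0.66 to 0.69 over tissue pairs), so run pairs the samples. Each library is a pool of 3 mice. With the run as a term, p-values measure how far the tissue differences varied between the 2 runs. All 3 tissues share 1 estimate of this spread, which is drawn towards that of other genes. CPM are per 1000000 UMIs of kept cells. Ratios between conditions have exact conditional binomial intervals. Doublets were not called here. The authors had removed hashtag doublets from the inflammation library. Members, gene lists and the rule for named genes (all members, the 3 highest genes of each list, those called, and the 3 genes most like each member) were chosen with earlier results of these data known. A gene of the substrate list and a gene of the likeness ranking are not reported here.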

Additional observations from a re-analysis of the deposited data

How the results depend on the processing

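The numbers of genes called between blood and marrow, spleen and marrow, and spleen and blood were 2037, 320 and 11. Without the replicate block they were 259, 0 and 0, with 678 and 425 genes at an unadjusted p under 0.05 in the last 2, where DESeq2 with the block called 308 and 30. The block changed the calls of Mmp8 and Adam19 and, in late cells, of Mmp8, Mmp9 and Retnlg. DESeq2 1.42.0 called 1324 between blood and marrow. Spleen and blood gave 64 with a limit of 1% for the S100 share, 31 with 10%, 2 with the filter on cell quality, 4 with missing rows taken as 0 and 3 without cells holding lymphocyte or platelet markers. Late cells alone gave 123, 146 and 30 calls, and the log2 fold change of Adam19 between blood and marrow turned to -0.0527. Leaving out each library in turn gave 498 (without blood of run 1) to 2664 (without spleen of run 1) between blood and marrow, 51 (without spleen of run 2) to 1226 (without spleen of run 1) between spleen and marrow, and 0 (without blood of run 2, 580 at an unadjusted p under 0.05) to 231 (without marrow of run 2) between spleen and blood. Apart from libraries left out, 149 values of member fold changes kept their side of the threshold, 10 newly passed it, 5 no longer did and 1 called value changed sign. Values that were not called changed sign too, for Mmp9 (blood and marrow), Adam8 (spleen and marrow, 0.11) and Retnlg (spleen and blood) with total UMIs, and for Adam8 (blood and marrow, -0.63), Adam19 (spleen and marrow, -0.22) and Retnlg (spleen and blood, -0.14) in late cells. A library left alone in its tissue was assumed to vary like the others.

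In the inflammation library, genes past 2-fold numbered 108 with TMM factors in place of 252 in arthritic blood and 1526 in place of 2332 in the peritoneum. At a mean of 100 CPM or more they were 26 (arthritic blood), 431 (joint), 715 (lung) and 735 (peritoneum) against healthy blood, 302 for joint against arthritic blood and 162 for lung against peritoneum. Against healthy blood of runs 1 and 2, which also differs in reagents, software and rule for cells, arthritic blood had 781, and Retnlg turned to -0.10. The alternative that left out every cell with a marker of another type was not run, since 1 cell of blood of run 2 remained. Late-cell alternatives, the marker filter without erythroid genes and missing rows taken as 0 were chosen after seeing the data. Depth limits Mmp25 and Adam19, with 309 and 960 UMIs in all healthy libraries. The causes of these differences were not tested.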
